A study of Mus musculus with 20 samples.

Results

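The Fads genes encode front-end and related fatty acid desaturases, membrane enzymes that place double bonds into acyl chains. Of the 55401 genes of the count table, 4 carry one of the symbols Fads1, Fads2, Fads3 and Fads6, and all 4 passed the filter on low counts that left 15986 genes. They were chosen with the diet values of these libraries known, so their diet differences are given as a description, with standard errors and without p-values. The 20 libraries hold polyA RNA of mouse eWAT, the epididymal white fat pad, 10 of random food restriction and 10 of a control diet. Random food restriction joins intermittent fasting to a calorie intake reduced by 5%, and the control animals had the control diet. Strain, age, sex and genotype are not given in the labels used here, nor is it said that each library is 1 animal, so p-values rest on a spread between libraries that may be technical.

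In mammals, Fads2 opens the conversion of the dietary fatty acids linoleic and alpha-linolenic acid into long polyunsaturated chains and is held to be its slow step. After an elongation, Fads1 adds a further double bond, which yields arachidonic and eicosapentaenoic acid, precursors of prostaglandins and leukotrienes. Fads3 acts on sphingoid bases in ceramides, while the substrate of Fads6 is not established. White fat takes up and stores polyunsaturated fatty acids and also expresses these enzymes.

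Fads1, Fads2 and Fads3 form 1 gene cluster on mouse chromosome 19, and Fads6 lies alone on chromosome 11 (build GRCm38, gene spans with exons and introns). Fads3 is at chr19:10041569-10059672 on the plus strand, Fads2 at chr19:10062765-10101746 on the minus strand, Fads1 at chr19:10182888-10195317 on the plus strand and Fads6 at chr11:115279622-115297663 on the minus strand. Fads3 and Fads2 face each other with their 3′ ends, 3092 bases apart, and Fads2 and Fads1 face each other with their 5′ ends, 81141 bases apart. The table's identifiers are ENSMUSG00000010663.5 for Fads1, ENSMUSG00000024665.8 for Fads2, ENSMUSG00000024664.5 for Fads3 and ENSMUSG00000044788.10 for Fads6. The only annotated gene that overlaps any of them is the microRNA Mir6993, inside Fads1 on the same strand, with 0 to 6 counts per library.

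The stretches upstream of Fads3 and of Fads6 are shown because these are the members with the largest diet differences, in opposite directions. Both come from RefSeq promoter windows on GRCm38.p6, without bases that lie in an annotated exon, and are written 5′ to 3′ on the strand of the gene. The Fads3 stretch is chr19:10041298-10041547, plus strand, and the Fads6 stretch chr11:115297664-115297812, minus strand. Capitals mark matches on either strand to 5 motifs: CCAAT (the box bound by NF-Y), GGGCGG (the GC box), AGGTCA (the nuclear receptor half-site), CACGTG (an E-box) and TCACCCCA (a sterol regulatory element).
Fads3: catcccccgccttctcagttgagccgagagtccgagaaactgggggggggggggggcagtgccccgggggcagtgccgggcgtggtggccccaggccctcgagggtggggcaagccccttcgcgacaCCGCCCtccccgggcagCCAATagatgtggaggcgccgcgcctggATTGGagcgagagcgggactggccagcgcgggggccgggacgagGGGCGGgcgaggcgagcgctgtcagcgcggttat
Fads6: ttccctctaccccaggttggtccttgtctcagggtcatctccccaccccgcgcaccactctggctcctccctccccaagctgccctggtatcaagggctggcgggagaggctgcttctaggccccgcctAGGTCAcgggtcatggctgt
The Fads3 stretch of 250 bases had a GC content of 74.4%, with 2 CCAAT and 2 GGGCGG matches, which do not overlap. The Fads6 stretch of 149 bases had a GC content of 65.1% and 1 AGGTCA match. Of 32851 RefSeq promoter windows, from 250 bases before to 50 after a start, 37.4% held CCAAT, 35.7% GGGCGG, 16.3% AGGTCA, 7.15% CACGTG and 1.56% TCACCCCA. The whole Fads6 window held a second AGGTCA and 1 GGGCGG, and the Fads2 window 1 GGGCGG. Such matches are letters in a window and are no measurement of binding.

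Libraries held 14306528 to 44061508 counts. The labels mark 10 libraries Yes for contamination with spermatocytes, the meiotic germ cells: 3 restricted and 7 control libraries, against 7 restricted and 3 control libraries marked No. Adipocyte markers were high throughout, with 9 genes summing to 37581 to 51790 CPM (counts scaled to library size) in restricted and 41396 to 53123 CPM in control libraries. The extraction text names QUAD, not eWAT. A sum of 10 skeletal muscle markers stood at 973 to 3378 CPM in Restricted 1 and Control 1 to 5, against 22.6 to 109 CPM in the other 14 libraries. The label itself was not tracked by male germ cell markers: 1 of 11 was above the filter, and their sum of 2.42 to 98.9 CPM in libraries marked Yes overlapped the 2.80 to 35.9 CPM in those marked No. Epididymis markers also overlapped, at 2.31 to 357 CPM in libraries marked Yes and 2.36 to 84.6 CPM in those marked No. A list of 10 motile cilia genes, added after the genes that go with the label were seen, did separate it: 34.8 to 165 CPM in libraries marked Yes and 3.44 to 9.30 CPM in those marked No. The RNA integrity number averaged 7.17 ± 0.399 in 8 restricted and 7.41 ± 0.267 in 9 control libraries (SD), and 3 libraries have none.

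Per length of transcript, the family was led by Fads3 in both diets. On the scale of CPM per kilobase of gene length, Fads3 had a level of 229 ± 19.3 in restricted and 168 ± 29.3 in control libraries (SD, n = 10 each, as for the following levels). Fads1 had 29.1 ± 2.99 in restricted and 33.7 ± 4.60 in control libraries. Fads2 had 12.4 ± 4.84 in restricted and 14.5 ± 6.06 in control libraries, and Fads6 0.610 ± 0.0967 in restricted and 1.35 ± 0.347 in control libraries. The order Fads3, Fads1, Fads2, Fads6 held in 20 of 20 libraries, so no neighbours in it changed places within a library. Of the summed level of the 4 genes, Fads3 made up 84.5% in restricted and 76.8% in control libraries on average, and Fads6 0.226% in restricted and 0.636% in control libraries. In bulk tissue, fewer cells of a type and less RNA per cell cannot be told apart.

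**Figure D1:**
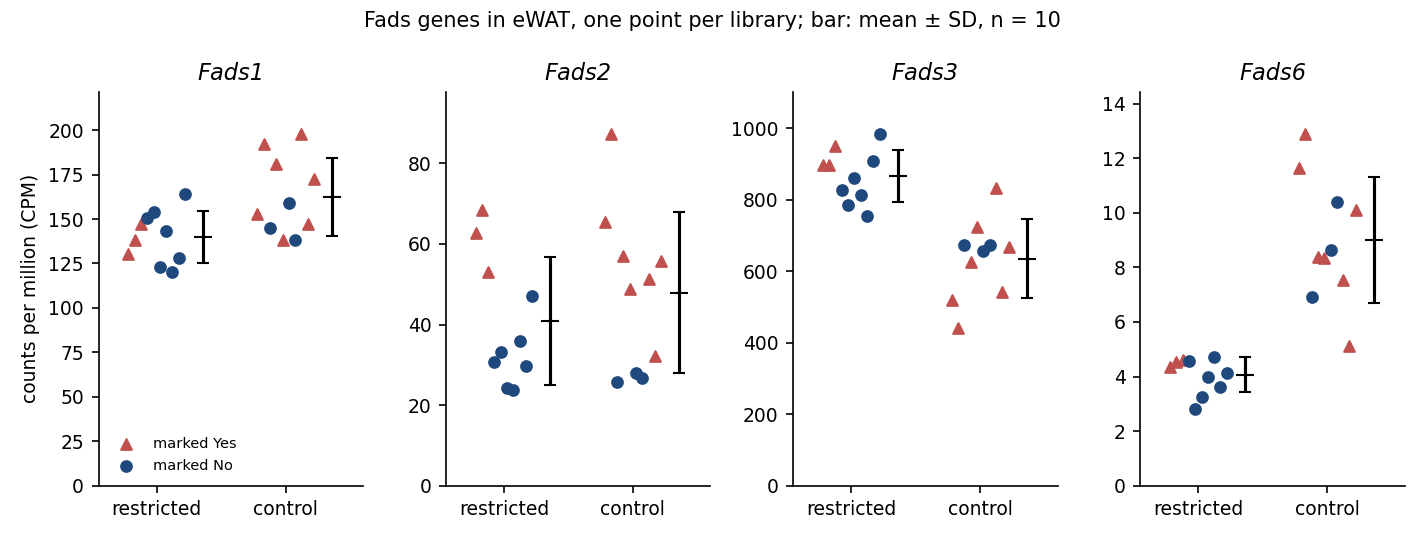
Level of Fads1, Fads2, Fads3 and Fads6 in CPM (vertical axes from 0) in each of the 20 libraries, restricted left of control, with triangles for libraries marked Yes and circles for those marked No. Bars give the mean ± SD over 10 libraries. All Fads6 points of restricted libraries (2.81 to 4.71 CPM) lie below all of control libraries (5.12 to 12.9 CPM), and Fads2 is high where the label is Yes in both diets.

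Fads2, which starts the pathway, had no clear diet difference. Its lowest, median and highest levels were 23.8, 34.6 and 68.4 CPM in restricted libraries, against 25.8, 50.1 and 87.2 CPM in control libraries. The ranges overlapped almost whole, and both were wide, with a coefficient of variation of 39.0% in restricted and 41.7% in control libraries. With the contamination label in the model, the log2 fold change (restricted over control, edgeR) was 0.18 ± 0.15 (SE), and without the label it turned to -0.23.

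Fads2 instead followed the contamination label, a contrast on which the genes were not chosen. In restricted libraries it had 52.9, 62.6 and 68.4 CPM in the 3 marked Yes, against 23.8 to 47.1 CPM (median 30.7) in the 7 marked No. In control libraries it had 32.2 to 87.2 CPM (median 55.8) in the 7 marked Yes, against 25.8, 26.7 and 28.1 CPM in the 3 marked No. Libraries marked Yes thus lay above those marked No within each diet, a separation in this direction that 2.51% of all tested genes had. The log2 fold change, Yes over No, was 1.01 ± 0.151 (SE), a 2.01-fold higher level, with an adjusted p of 4.76e-05 by edgeR's quasi-likelihood test. In all, 5.30% of the tested genes were called by the label at an adjusted p under 0.05, and of the 4 members Fads2 was the only one.

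The motile cilia genes followed the same label. All 10 rose in libraries marked Yes, by a median log2 fold change of 4.64, among them Foxj1, the regulator of ciliated cells, by 6.54. The list was added after the genes that go with the label were seen, so this rise is no test. Fads2 had its 32.2 CPM, the lowest level among libraries marked Yes, in Control 9, where the sum of the cilia genes was also lowest among those libraries, at 34.8 CPM. Its highest level, in Control 2, stood beside a middling sum of 57.5 CPM. Among libraries marked No, Restricted 10 had the highest Fads2 level, 47.1 CPM, and the lowest sum of the cilia genes, 3.44 CPM. Whether RNA of ciliated cells carries the Fads2 difference was not tested. Without the 6 libraries with muscle transcripts the log2 fold change by label was 0.85 (adjusted p = 0.00243).

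**Figure D2:**
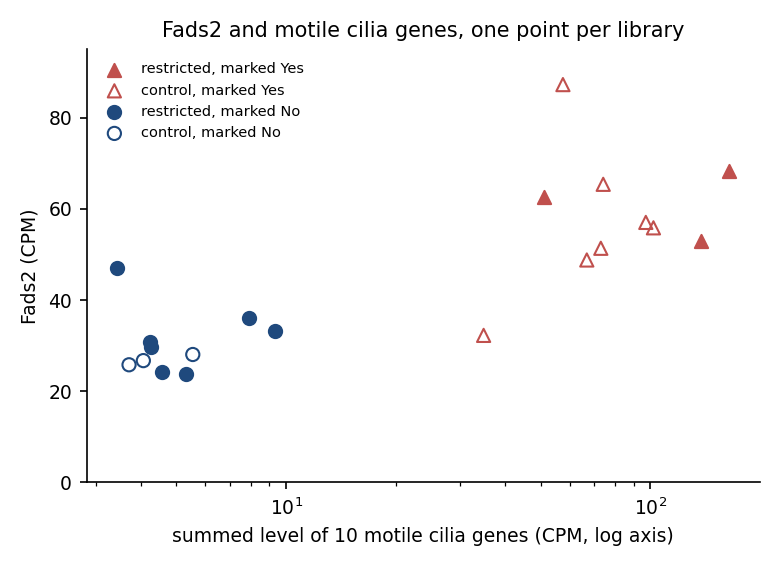
Fads2 level (CPM, axis from 0) against the summed level of 10 motile cilia genes (CPM, log axis), 1 point per library, with filled symbols for restricted and open ones for control libraries, triangles for marked Yes and circles for marked No. Libraries marked Yes sit at 34.8 to 165 CPM of cilia genes and those marked No at 3.44 to 9.30 CPM, and within each diet all triangles lie above all circles on the Fads2 axis.

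The other members gave no call by label. Fads1 differed by a log2 fold change of 0.09 ± 0.0816 (SE, adjusted p = 0.73), Fads3 by 0.00 ± 0.0954 (adjusted p = 0.995) and Fads6 by 0.14 ± 0.15 (adjusted p = 0.77). For Fads6 in control libraries, those marked Yes spanned 5.12 to 12.9 CPM and those marked No 6.90 to 10.4 CPM. A test of whether the diet difference itself depends on the label called 0 genes of all tested by edgeR (871 at an unadjusted p under 0.05), 1 by DESeq2 and 0 by limma-voom. For the members its adjusted p ranged between 0.865 for Fads1 and 0.939 for Fads6.

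Fads1, the enzyme after the first elongation, had overlapping levels in the diets. Its lowest, median and highest levels were 120.3, 141 and 164 CPM in restricted libraries, against 138, 156 and 198 CPM in control libraries. The ranges overlapped over much of their width, and the spread within a diet was narrow for this family (coefficient of variation 10.3% in restricted and 13.6% in control libraries). The log2 fold change by diet was -0.18 ± 0.0816 (SE), with -0.28 among the Yes libraries on their own and -0.06 among the No libraries.

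Fads3, the ceramide desaturase, was higher under restriction. Its lowest, median and highest levels were 753, 877 and 983 CPM in restricted libraries, against 440, 663 and 832 CPM in control libraries. The highest control library, Control 8, reached above the lowest restricted one, so the diets overlapped. The log2 fold change was 0.45 ± 0.0955 (SE), or 1.37-fold. On their own, the Yes libraries gave 0.56 and the No libraries 0.35, and the 14 libraries low in muscle transcripts gave 0.39. The 3 control libraries marked No lay close together at 657 to 673 CPM, while the 7 marked Yes spread between 440 CPM in Control 2 and 832 CPM in Control 8.

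Fads6, whose substrate is not known, was the low-level member and the one with the largest diet difference. Its lowest, median and highest levels were 2.81, 4.24 and 4.71 CPM in restricted libraries (68 to 155 counts), against 5.12, 8.51 and 12.9 CPM in control libraries (97 to 333 counts). No restricted library reached the level of any control library, a separation in this direction that 0.588% of the tested genes had. The log2 fold change was -1.10 ± 0.15 (SE), so restricted libraries had 0.468 of the control level. On their own, the Yes libraries gave -1.02 and the No libraries -1.16, and the 14 libraries low in muscle transcripts gave -1.06. With the integrity number as a term, the 17 libraries that have one gave -0.88.

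Under the threshold used for all genes, an adjusted p under 0.05, the fit calls 2 of 4 members by diet, Fads3 and Fads6, beside 13.6% of all tested genes. The members were chosen on this contrast, so neither the calls nor the share are a test of them. The Fads3 call was lost with the integrity number as a term, in the Yes libraries alone and in the No libraries alone. The Fads6 call was lost in the Yes libraries alone.

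Set against the mean of the other 3 members, Fads6 gave 1 value per library on the log2 CPM scale. It lay at -5.78, -5.37 and -4.95 (lowest, median, highest) in restricted libraries, against -4.74, -4.24 and -3.69 in control libraries. The diets did not overlap, which the choice of the members fixes in part. By contamination label, which the choice did not use, the value differed by -0.22 (Yes minus No within diet) with a two-sided exact permutation p of 0.148 over all arrangements within the diets. The mean it is set against includes the label difference of Fads2 given above.

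**Figure D3:**
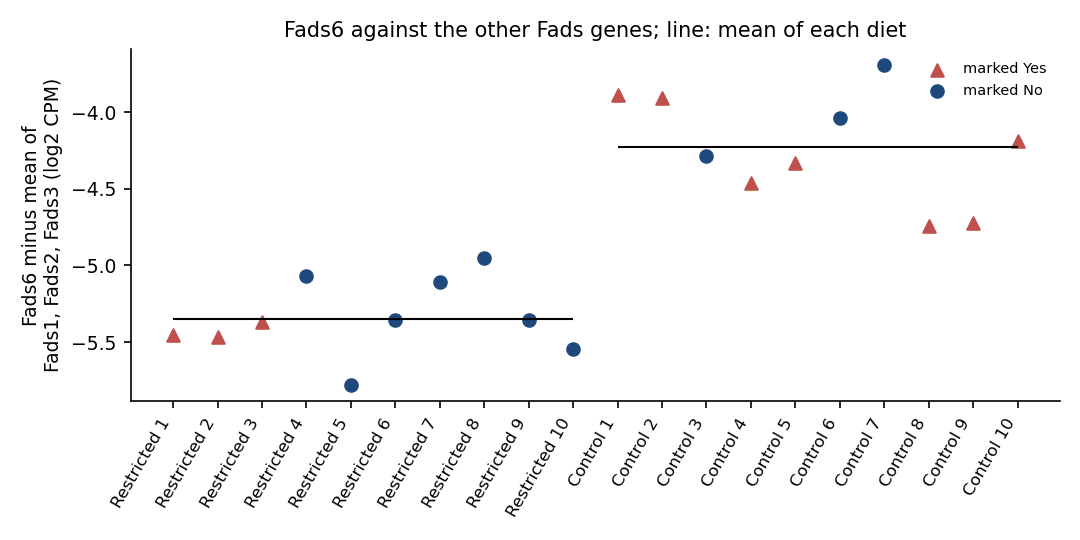
Fads6 minus the mean of Fads1, Fads2 and Fads3 (log2 CPM) in each library, restricted libraries left of control, triangles for marked Yes and circles for marked No, with a line at the mean of each diet. The restricted libraries lie between -5.78 and -4.95 and the control libraries between -4.74 and -3.69.

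Across libraries the members did not move as 1 unit. Fads3 and Fads6 had a Pearson r of -0.74 over the 20 libraries on log2 CPM. With the mean of each label over both diets taken off, it was -0.48 in the 10 restricted and -0.36 in the 10 control libraries. Handled in the same way, Fads2 and Fads6 had 0.15 in restricted and 0.67 in control libraries. The label is shared unevenly between the diets, so this step brings part of the diet difference into the values of each diet. They are not plain r values within a diet, and the sign of those cannot be read from them. All r values given here are descriptions over few libraries that share diet, label and scaling.

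Markers of other cells moved with the diet beside Fads6 and Fads3. Over all tested genes, 13.6% were called by diet. All 8 macrophage markers fell, with summed levels of 812 to 1446 CPM in restricted and 1320 to 1869 CPM in control libraries, the extremes among them being Mrc1 (log2 fold change -0.70, adjusted p = 0.000194) and C1qa (-0.32, adjusted p = 0.0203). Of 6 markers of adipocyte progenitors, 3 fell, Pdgfra (-0.61), Dcn (-0.60) and Lum (-0.32). On plain library totals, their list's sums of 996 to 1612 CPM in restricted and 1679 to 2272 CPM in control libraries did not overlap. The gap lay between Restricted 8 and Control 5, whose TMM scaling factors, not used in these sums, were 0.984 and 1.032. Of single tested genes, 0.588% had a separation in this direction, but on TMM-scaled levels. The separation of the sums need not hold on that scale. Of 6 endothelial markers, 2 fell, Vwf (-1.01) and Plvap (-0.80), with overlapping sums of 422 to 780 CPM in restricted and 470 to 911 CPM in control libraries. Of 9 adipocyte markers 2 were called higher, Lep (0.50) and Fabp4 (0.31), and 0 lower. The median log2 fold change of that list was -0.008. Its sums had a median of 47161 CPM in restricted and 49105 CPM in control libraries. The germ cell marker Sycp3, the only 1 of 11 above the filter, rose by 1.37 on the log2 scale (adjusted p = 0.000912). It had 2.88 to 12.6 CPM in restricted and 1.31 to 2.88 CPM in control libraries. The summed level of all 11 germ cell markers had the lower median in restricted libraries. It was 4.85 CPM (3.26 to 98.9) there and 9.84 CPM (2.42 to 35.9) in control libraries. Of the 10 motile cilia genes, Tekt1 (1.13, adjusted p = 0.0131) and Cfap54 (0.88, adjusted p = 0.00757) rose by diet in the same model. No marker of the macrophage, progenitor, endothelial and adipocyte lists was at 0, and the part of all these markers in the Fads3 and Fads6 differences was not tested.

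The genes most like each member were ranked by Pearson r on log2 CPM over the 20 libraries after the mean of each label was taken off, among 14290 genes of at least 1 CPM. For Fads6 they were Fgl2 (0.94), Slit2 (0.93), Prokr1 (0.93) and Olfml2b (0.93), of which Prokr1 averaged 2.94 ± 0.496 CPM in restricted and 6.29 ± 1.10 CPM in control libraries (SD, n = 10 each). Within the restricted libraries Fads6 had 0.53 with Fgl2, 0.305 with Slit2, 0.81 with Prokr1 and 0.72 with Olfml2b. Within the control libraries these were 0.87, 0.85, 0.69 and 0.835. For Fads3 they included Dmtn (0.91), Trarg1 (0.90) and Rasl12 (0.88). Trarg1, a regulator of the glucose transporter of fat cells, averaged 843 ± 112 CPM in restricted and 608 ± 120 CPM in control libraries. The r of this ranking was lower for Fads1, with Fcgr1 (0.74), Rspo3 (0.74), Apod (0.72) and Slc25a30 (0.72). It was also lower for Fads2, with Zc3h4 (0.78), Frg2f1 (0.76), Cnbd2 (0.70) and Lrrc15 (0.70). This r keeps the diet difference, on which the members were chosen. Zc3h4 and Fads2 had 0.88 within the restricted and 0.87 within the control libraries, and Trarg1 and Fads3 had 0.43 and 0.91.

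The neighbours of the genes on the chromosome gave no diet call. These were Rab3il1, Best1 and Fth1 below the cluster, Fen1, Tmem258 and Myrf above it, and Fdxr, Tmem104, Nat9, Hid1, Cdr2l and Mrpl58 around Fads6. Their log2 fold changes ran between -0.30 for Myrf, the transcription factor of myelinating cells, and 0.15 for Tmem258. The lowest adjusted p was 0.137, for Cdr2l, and the gene next to Fads6, Fdxr, 2708 bases away, had -0.17 ± 0.109 (SE, adjusted p = 0.337).

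The rest of the pathway was described from 6 lists of 83 genes. Of the 76 that passed the filter, 13 rose and 6 fell with restriction, 25.0% beside the 13.6% of all tested genes, and their median log2 fold change was 0.08 against 0.01 for all. Without the 6 libraries with muscle transcripts 3 rose and 4 fell, where 927 genes were called in all. With the integrity number in the model 5 rose and 1 fell. Among the Yes libraries on their own 0 rose and 3 fell, and among the No libraries 2 rose and 1 fell. Of the 19 genes called in all 20 libraries, Cyb5d2, Hacd1, Insig2 and Tbxas1 were also called without the 6 libraries with muscle transcripts, and the others named below were not.

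The elongation cycle, which lengthens the chains between the desaturation steps, had 4 of 12 tested members higher and 1 lower. Elovl5, the elongase of polyunsaturated chains, averaged 84.1 ± 11.8 CPM in restricted and 67.7 ± 6.82 CPM in control libraries (log2 fold change 0.35, adjusted p = 0.00822), with 0.32 (adjusted p = 0.11) without the 6 libraries with muscle transcripts. Elovl6, the elongase of palmitate, had 34.8, 69.0 and 773 CPM in restricted libraries (lowest, median, highest), against 35.3, 55.5 and 87.3 CPM in control libraries. Its log2 fold change of 2.04 (adjusted p = 0.00833) became 0.90 (adjusted p = 0.322) without Restricted 1. Tecr, the reductase of the cycle, rose by 0.58 (adjusted p = 0.0306), which became 0.32 (adjusted p = 0.197) without Restricted 1. Of the dehydratases of the cycle, Hacd1 rose by 0.32 (adjusted p = 0.0201) and Hacd4 had -0.40 (adjusted p = 0.0349), calls lost when any of 2 and any of 5 libraries were left out. Of the abundant members, the peroxisomal enzyme Hsd17b4 had 0.20 (adjusted p = 0.116) and Hacd2 0.01 (adjusted p = 0.948).

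Among 7 other desaturases, 2 rose and none fell. Scd1, which makes oleate and palmitoleate, had 40549, 57880 and 92676 CPM in restricted libraries (lowest, median, highest), against 29919, 34367 and 41758 CPM in control libraries. Restricted 3 lay inside the control range and the other 9 above it. The log2 fold change was 0.82 (adjusted p = 0.000989), and 0.59 (adjusted p = 0.0529) without the 6 libraries with muscle transcripts. Degs1, the ceramide desaturase of the usual double bond, had 0.22 (adjusted p = 0.0473), a call lost when any of 14 libraries was left out, and Scd2 had 0.50 (adjusted p = 0.197). Restricted 1 and Restricted 10, highest in Scd1 and Elovl6, had 62.6 and 47.1 CPM of Fads2, the second highest of all restricted libraries and the highest of those marked No, and 4.34 and 4.13 CPM of Fads6, near the restricted median.

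Of 8 cytochrome b5 and related genes, listed as electron donors of desaturases, 3 rose and none fell. Whether each of these 8 serves desaturases was not tested. On the log2 scale Cyb5d2 rose by 0.41 (adjusted p = 0.00323), Cyb5r1 by 0.24 (adjusted p = 0.00691) and Cyb5a, the cytochrome that serves the desaturases directly, by 0.19 (adjusted p = 0.0461), a call lost when any of 13 libraries was left out. The abundant Cyb5b had 0.19 (adjusted p = 0.428) and Cyb5r3 0.14 (adjusted p = 0.349). Of 16 regulators, 2 rose and 1 fell. Insig2, which retains the SREBP complex, rose by 0.29 (adjusted p = 0.00323). Insig1, of the same function, had 0.95 (adjusted p = 0.0179), but 0.42 (adjusted p = 0.23) without Restricted 1. Srebf2 had -0.20 (adjusted p = 0.0471), a call lost when any of 15 libraries was left out. Srebf1, the regulator best known for driving Fads1 and Fads2, had 0.14 (adjusted p = 0.491), Thrsp 0.46 (adjusted p = 0.21) and Rxra -0.18 (adjusted p = 0.0542).

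**Figure D4:**
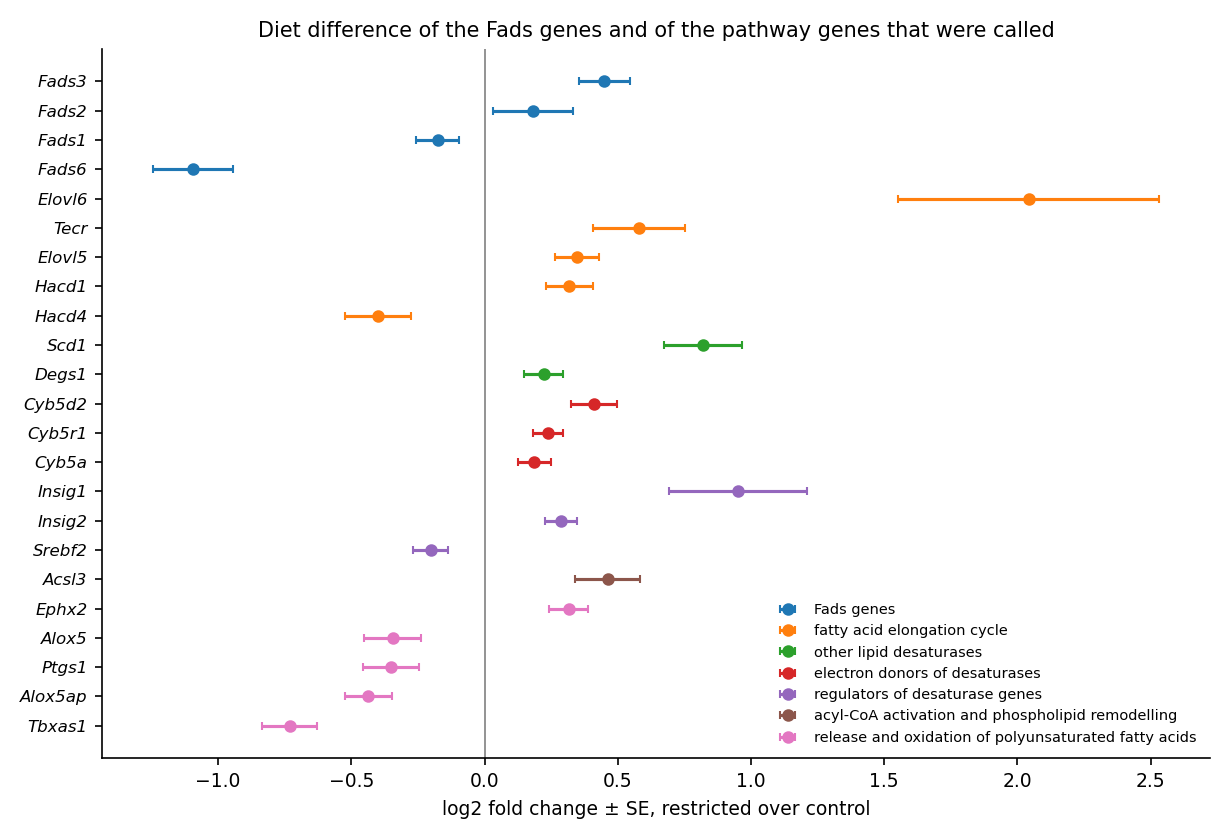
Log2 fold change, restricted over control, with its SE, of the 4 Fads genes and of the 19 pathway genes called by diet, grouped by list. Fads6 lies at -1.10 and Fads3 at 0.45. Elovl6 lies farthest right at 2.04 with the widest SE, and among the genes of release and oxidation Tbxas1 lies lowest at -0.73.

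Of 13 genes of acyl-CoA activation and phospholipid remodelling, Acsl3 alone was called, with a log2 fold change of 0.46 (adjusted p = 0.015), a call lost under 7 of 14 other settings, among them leaving out the 6 libraries with muscle transcripts (0.34, adjusted p = 0.221). Acsl1 had 0.40 (adjusted p = 0.0861), Lpcat3, which puts arachidonate into phospholipids, 0.31 (adjusted p = 0.108) and Agpat3 0.03 (adjusted p = 0.821). The 20 tested genes that release and oxidise polyunsaturated fatty acids were the list with most lower genes, 4 against 1 higher, with a median of -0.21. Tbxas1, thromboxane synthase, averaged 12.3 ± 2.46 CPM in restricted and 19.1 ± 2.30 CPM in control libraries (SD, n = 10 each), with a log2 fold change of -0.73 (adjusted p = 0.000117). Alox5ap and Alox5, which start leukotriene synthesis, fell by 0.44 (adjusted p = 0.00224) and 0.34 (adjusted p = 0.0359) on the log2 scale, and Ptgs1, a cyclooxygenase, by 0.35 (adjusted p = 0.0295). The Alox5 call was lost without any of 6 libraries and that of Ptgs1 without any of 4. All 4 are known from leukocytes or platelets, and the macrophage markers given above fell in the same libraries, but the part of such cells was not tested. Ephx2, the soluble epoxide hydrolase, rose by 0.32 (adjusted p = 0.00611), while Ptges had 0.29 (adjusted p = 0.187) and Lta4h -0.04 (adjusted p = 0.61).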

How the data were processed

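The authors deposited whole-number counts per gene for 20 libraries, with gene coordinates and lengths, unscaled as far as the values show. Per the labels' protocols, libraries were made with a Tecan kit from polyA RNA and read as 52-bp paired ends. Named in the submitters' processing notes are GRCm38, STAR, Salmon and bcl2fastq 4.0.3. How and on which strand genes were counted is not given in the sources used here, and reads shared with near-identical copies could be split.

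The members and lists were chosen with earlier results of these data known. Of the identifiers, 55141 had a symbol. The test was edgeR's quasi-likelihood test (version 4.0.16, R 4.3.3), two-sided, with the contamination label and the diet in the model and scaling by TMM. The filter was filterByExpr by diet (minimum count 10), which kept at least 99.629% of each library's counts, and p-values of all 15986 genes were adjusted by Benjamini-Hochberg, with calls under 0.05. CPM of single genes use the TMM-scaled totals, and marker sums the plain totals. Log2 CPM used a prior count of 2. In each pathway list, genes called by diet and the 3 most abundant were named, besides 3 neighbours on each side and the 4 genes most like each member; 2 genes that this rule names are not reported here. Marker lists are given as sums and counts, with the genes of extreme or few calls. The biological coefficient of variation was 0.179, and within a diet the counts of any 2 libraries differed beyond sampling noise (chi-square per degree of freedom of at least 9.61). On simulated counts of 15770 genes with 200 changed by diet, the fit recovered 94% at an absolute log2 fold change of 1 and 99% at 2. It made 3 false calls among unchanged genes. The counts were drawn from the fitted model itself, and changes smaller than 1 were not simulated. The alternatives were DESeq2 1.42.0, limma-voom (limma 3.58.1), other scaling factors, filters and terms, subsets of libraries and leaving out each library. Figures used Python 3.11.15 with matplotlib 3.10.9.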

Additional observations from a re-analysis of the deposited data

How the results depend on the processing

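The diet log2 fold changes of Fads1, Fads3 and Fads6 kept their sign under every alternative run, and that of Fads2 did so except without the label (-0.23). The Fads2 difference by label stayed past the threshold in all alternatives run. Genes called by diet numbered 2173, but 1388 with a replicate block, 392 with the integrity number, 1445 in the same 17 libraries without it, 927 without the 6 libraries with muscle transcripts, 239 in the Yes libraries on their own and 400 in the No libraries. Called pathway genes numbered 19, but 12 with the block, 6 with the integrity number, 7 without muscle libraries, 3 in Yes alone and 3 in No alone. Genes called by label numbered 848, but 530 at a minimum count of 30, and DESeq2 called 1 gene by interaction. Numbers are shared between diets, but 0 of 10 restricted libraries correlated best with their own number (r of -0.09 to 0.13). Such correlations showed no pairing by number but cannot exclude one, so the replicate block is given as an alternative. Under the block Fads2 by label had 0.57 (adjusted p = 0.0302) and Fads6 by label -0.048. Other values that changed sign were all near 0 or not called. By label, Fads3 had -0.011 without a filter and -0.004 with the integrity number, and Fads6 -0.018 without muscle libraries. Fads6 minus the others by label was 0.27 without strata. That value takes in the diet difference, since 7 control and 3 restricted libraries are marked Yes. By diet, Fth1 had 0.035 with the integrity number, 0.092 in Yes alone and 0.001 by voom. Rab3il1 had -0.026 with the integrity number, -0.015 with a muscle index and -0.093 in No alone. Tmem104 had -0.11 without muscle libraries, -0.093 in No alone and -0.066 by voom. Myrf had 0.13 without muscle libraries and Mrpl58 -0.038 in No alone. The cause of these other changes of sign was not tested. Leaving out 1 library at a time gave 1506 to 2274 genes by diet, 709 to 944 by label, 0 to 1 by interaction and 13 (without Restricted 1) to 20 pathway genes. It gave Fads1 -0.21 to -0.14, Fads2 0.13 to 0.25, Fads3 0.41 to 0.49 and Fads6 -1.15 to -1.02 by diet. By label it gave Fads1 0.05 to 0.12, Fads2 0.94 to 1.06, Fads3 -0.035 to 0.04, Fads6 0.09 to 0.22 and Fads6 minus the others -0.29 to -0.14. By diet it gave Fen1 -0.196 to 0.008, Fth1 -0.069 to 0.012, Rab3il1 -0.039 to 0.06 and Tmem104 -0.089 to 0.055. Fads6 rested on 68 to 333 counts per library, where counting error is not small.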

Other observations

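Fads2b, a further desaturase gene that did not pass the filter on low counts, was listed at 0 counts in all 10 restricted libraries. Among control libraries it had 3223 counts (143 CPM) in Control 2, 9 in Control 7, 2 in Control 1 and 1 in Control 4. Control 2 thus held 99.6% of its counts. A search made after this was seen found 5 genes with at least 300 counts of which over 90% fell in 1 library, and for each that library was Control 2. Besides Fads2b these were Pomc, the precursor of pituitary hormones, with 30482 counts there, Psapl1 with 1076, Idi2 with 809 and the pseudogene Rpl10a-ps2 with 371. Control 2 also had the highest levels of Fads2 (87.2 CPM) and Fads6 (12.9 CPM) and the lowest of Fads3 (440 CPM). Without it the diet log2 fold change of Fads3 was 0.41 and that of Fads2 0.25.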
